A study of Drosophila melanogaster with 12 samples.

Results

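Wing imaginal discs that carried a transgene for the transcription factor MiT were compared with discs that carried the Gal4 driver alone, on 6 of the 12 arrays of the series. The 6 arrays were chosen by their titles: 3 of discs with nub-Gal4 and UAS-MiT (titled nub-MiT), called nub-MiT discs here, and 3 of discs with nub-Gal4 and no UAS transgene (titled wt), called driver-alone discs here. Both groups thus shared the nub-Gal4 driver, and all discs came from third-instar (L3) Drosophila melanogaster larvae raised at 25 °C. The remaining 6 arrays hold hindgut and Malpighian tubule samples and entered only 1 alternative fit. The comparison asked which genes respond to raised MiT in the wing disc. Nothing in the labels states that replicates were separate collections of animals; the p-values therefore reflect the spread among these arrays, which may be technical.

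MiT, named Mitf in the files, is the Drosophila counterpart of MITF and TFEB, basic helix-loop-helix transcription factors. It is known for driving genes of lysosomes and of the vacuolar proton pump (V-ATPase) and is restrained by the nutrient-sensing kinase TORC1. The wing disc is an epithelial sac that grows and is patterned during larval life and forms the adult wing and dorsal thorax at metamorphosis, under the control of the steroid hormone ecdysone. The nub-Gal4 driver is active in the part of the disc that forms the wing, whereas RNA was taken from dissected tissue that also holds the rest of the disc. In such bulk samples, fewer cells of a type and less RNA per cell cannot be told apart.

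Levels are log2 values after GCRMA, an array normalization that subtracts background, and a log2 level of 4 was taken as the limit of detection. Of 18769 probe sets that are not controls, 7888 reached this level on at least 3 of the 6 arrays and were tested, and they covered 7176 named genes, each read by its brightest probe set. Correlations between replicate arrays were 0.974 to 0.985 among nub-MiT discs and 0.977 to 0.982 among driver-alone discs, and arrays of different groups correlated at 0.921 to 0.950. The labelled tissue was checked against its markers: nub, the gene the driver is named for, read 10.75, 10.85 and 10.80 in nub-MiT discs and 11.92, 11.73 and 11.92 in driver-alone discs, and ap, ara and caup, which pattern the disc, read over 8.9 on all 6 arrays. The further markers of this check, vg, Doc1 and pdm2, were also lower in nub-MiT discs. Doc1 had a mean of 6.17 there and 7.85 in driver-alone discs, and pdm2 lay under the limit of detection on all nub-MiT arrays. The number of arrays limits the precision here.

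Mitf itself read 8.02, 8.11 and 8.21 in nub-MiT discs and 7.93, 7.91 and 8.15 in driver-alone discs. The groups overlapped, and the difference of 0.12 on the log2 scale (SE 0.10, limma adjusted p = 0.372) did not pass the test. The labels do not tell whether the transgene contains the stretch this probe set reads, so the value does not check the label.

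In all, 1181 probe sets were higher in nub-MiT discs (15.0% of those tested) and 1381 were lower (17.5%) at a limma adjusted p under 0.05, the threshold used throughout. Of these, 386 were at least 2-fold higher and 246 at least 2-fold lower in the deposited levels, those under the limit of detection included. By gene, 1058 were higher (14.7% of 7176) and 1248 lower (17.4%), and the 3 values of each group did not overlap for 3644 genes (50.8%). The median difference over all tested genes was -0.04. Of the tested genes, 68 reached the limit on all nub-MiT arrays and no driver-alone array, and 24 the reverse; such genes entered the test only through the group in which they were high and could count in 1 direction only, so they are named or counted beside each list that holds any. The count of lower probe sets was 840 without nub-MiT disc 1, 719 without nub-MiT disc 2 and 916 without nub-MiT disc 3.

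Large differences among the genes that passed were more often rises, in counts that include genes tested only through the group in which they were high. Of all tested genes, 68 were so tested through the nub-MiT discs and 24 through the driver-alone discs. The counts were not made without them. With means under the limit of detection set to that limit, as in every fold below, 317 of the called genes were at least 2-fold higher and 208 at least 2-fold lower, 101 at least 4-fold higher and 53 at least 4-fold lower, and 14 at least 16-fold higher and 2 at least 16-fold lower. The 25 largest called rises without overlap between the groups spanned 10.1-fold to 88.6-fold, and the 25 largest such falls spanned 6.45-fold to 19.2-fold. All 25 rises, and 21 of the 25 falls, kept the call in each of the 6 fits that left out 1 array. The falls of Ugt301D1, b, CG5171 and Lcp3 did not. The fit to all 12 arrays called 23 of the 25 rises and 20 of the 25 falls.

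**Figure D1:**
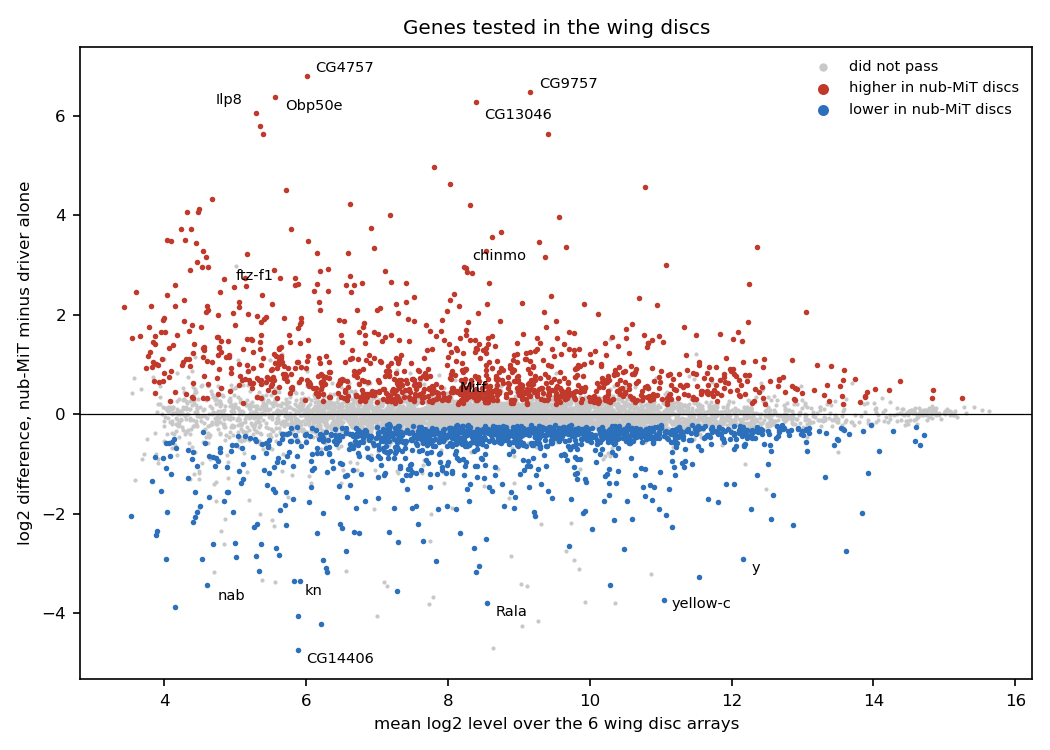
Difference between nub-MiT and driver-alone discs (log2, vertical axis) against the mean log2 level over the 6 arrays (horizontal axis), with 1 point for each of the 7176 tested genes. Red points are the 1058 genes higher in nub-MiT discs, blue points the 1248 genes lower, and grey points did not pass the test; the largest rises exceed 6 on the log2 scale and the largest falls reach -4.74.

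The largest of these rises was that of CG9757, a gene whose product has no name in the files. It read 12.99, 12.31 and 11.89 in nub-MiT discs against 5.97, 6.52 and 5.30 in driver-alone discs, 88.6-fold higher (adjusted p = 0.000223). CG13046 read 11.47, 11.46 and 11.65 in nub-MiT discs and 5.63, 5.18 and 4.95 in driver-alone discs, 77.3-fold higher. In both genes the groups lay several log2 units apart, and a lack of overlap was a condition of their choice.

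Ilp8, a relaxin-like hormone by which damaged or overgrown discs delay metamorphosis, had the smallest p of all tested genes (adjusted p = 3.34e-07). This rank does not measure the strength of the evidence. The driver-alone values lay under the limit of detection and were nearly identical, so their spread is not that of a detected level. Ilp8 also entered the test only through the nub-MiT discs. It read 8.29, 8.28 and 8.39 in nub-MiT discs and 2.26 on each driver-alone array, where it was under the limit of detection, so it was at least 19.98-fold higher. The same pattern was met by AOX2, CG14022, CG34247, CG4757, CG5810, CG6409, CG8563, Hpd and Obp50e, which all lay under a level of 4 on all driver-alone arrays and at 6 or over on all nub-MiT arrays and made up 10 genes with Ilp8. Of these, CG4757 read 8.88, 9.93 and 9.44 in nub-MiT discs and was at least 42.7-fold higher. The reverse pattern, at 6 or over in all driver-alone discs and under 4 in all nub-MiT discs, was met by 1 gene, nab.

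Antdh, an antennal dehydrogenase, was also among the 25 largest rises, at 24.6-fold higher, and ATPsynepsilonL, named for its likeness to a subunit of the mitochondrial ATP synthase, was 18.5-fold higher. Ude, an enzyme that cuts uracil-containing DNA, read 8.71, 8.64 and 8.54 in nub-MiT discs and 5.34, 5.45 and 5.10 in driver-alone discs, 10.1-fold higher. BomS6, a secreted peptide of the Bomanin family of immune effectors, was 16.1-fold higher. None of these 4 genes overlapped between the groups, as their choice required.

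CG14406, which has no name in the files, had the largest fall of this set, with levels of 3.36, 2.61 and 4.57 in nub-MiT discs and 7.96, 8.77 and 8.06 in driver-alone discs, at least 19.2-fold lower (adjusted p = 0.00169). Rala, a small GTPase of the Ras superfamily, read 6.30, 6.74 and 6.92 in nub-MiT discs and 10.36, 10.43 and 10.56 in driver-alone discs, 13.9-fold lower (adjusted p = 7.99e-05). Both groups of Rala were tight, and they stood more than 3 log2 units apart. Nha1, a sodium and proton antiporter, fell at least 6.64-fold, and ltl (larval translucida) fell 8.94-fold.

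Genes that pattern the wing disc fell more often than they rose. Of 48 genes of this list on the array, 44 were tested, 21 fell and 4 rose, with a median difference of -0.29, and 10 fell at least 2-fold. The falls of nab, sens and pdm2 are of genes that entered the test only through the driver-alone discs. Without any 1 array 18 to 21 members fell, and in the fit to all 12 arrays 12 fell. kn (knot), needed for the central intervein region of the wing, read 4.07, 4.30 and 4.09 in nub-MiT discs and 7.46, 7.39 and 7.65 in driver-alone discs, 10.2-fold lower (adjusted p = 2.85e-05). nab, a transcriptional cofactor, read 3.26, 2.19 and 3.23 in nub-MiT discs and 6.44, 6.33 and 6.22 in driver-alone discs, at least 5.01-fold lower.

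The selector gene vg (vestigial) fell by 0.89 on the log2 scale and nub by 1.05, and the nub relative pdm2 was at least 2.70-fold lower. sens, a zinc-finger factor of sensory organ precursors and the wing margin, read 3.01, 2.92 and 3.30 in nub-MiT discs and 6.22, 5.86 and 5.90 in driver-alone discs, at least 3.98-fold lower (adjusted p = 0.000117). The 3 neighbouring T-box genes Doc1, Doc2 and Doc3 fell by 1.68, 1.67 and 1.12 on the log2 scale. al (aristaless), a homeodomain factor, fell by 1.84. wg, which encodes the Wingless ligand, differed by -0.06 and dpp, which encodes a BMP ligand, by 0.18, and neither passed the test. The 4 members that rose were fz3, a receptor gene induced by Wingless (0.77), ct (0.69), tsh (0.28) and ci (0.22). Only fz3 of these kept its call in all 6 fits without 1 array, and the 4 rises numbered 2 without nub-MiT disc 1 and 1 without nub-MiT disc 2 or 3 or driver-alone disc 1 or 2.

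Genes of Notch signalling and of the Enhancer of split complex included 6 that fell and 0 that rose among 22 tested, with a median of -0.10 (2 were higher at an unadjusted p under 0.05 in limma, and the 12-array fit also called 0 higher; 2 rose without driver-alone disc 1 and 1 without driver-alone disc 3). Ocho, of the Bearded family that tempers Notch signalling, fell 3.80-fold, with levels of 4.70, 4.36 and 4.95 in nub-MiT discs and 7.02, 6.45 and 6.31 in driver-alone discs. E(spl)mgamma-HLH, a repressor switched on by Notch, fell 2.11-fold. Of 21 tested Wingless genes 2 rose and 1 fell (3 rose without driver-alone disc 3 and 1 without each of the other 5 arrays, and 0 fell without nub-MiT disc 2). Of 18 EGF receptor genes 1 rose and 3 fell. In that list 0 fell in the 12-array fit and without nub-MiT disc 1 or 2, and 1 without each driver-alone disc, while 0 rose without nub-MiT disc 1, 2 or 3 or driver-alone disc 1 and 2 without driver-alone disc 3. The shares of these last lists were under or near those of all genes.

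The list of disc damage and cytokine genes gave calls in both directions. Of 27 tested members 7 were higher and 6 lower, with a median of 0.02. Of all tested genes, 14.7% were higher and 17.4% lower. Ilp8 is among the 7 and entered the test only through the nub-MiT discs. upd1, a ligand of the JAK/STAT cytokine pathway, read 6.39, 6.88 and 7.42 in nub-MiT discs and 4.98, 4.73 and 5.19 in driver-alone discs, 3.82-fold higher (adjusted p = 0.00401). Its receptor dome rose by 0.46 and its feedback inhibitor Socs36E by 1.18 on the log2 scale. Neither gene overlapped between the groups, as was so for 50.8% of all tested genes. The rise of dome did not pass in the 12-array fit (limma adjusted p = 0.112). The kinase hop and the transcription factor Stat92E of the same pathway differed by 0.08 and 0.16 and did not pass, and Ptp61F, a phosphatase that dampens it, fell by 0.30. The ligands upd2 and upd3 stayed under the filter on dim probe sets.

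chinmo, a BTB zinc-finger factor of undifferentiated and early larval cells, read 9.62, 9.75 and 9.76 in nub-MiT discs and 6.75, 6.99 and 6.49 in driver-alone discs, 7.83-fold higher (adjusted p = 9.33e-05). Xrp1, a bZIP factor of stressed and outcompeted cells, read 12.44, 12.45 and 12.42 in nub-MiT discs and 11.66, 11.45 and 11.56 in driver-alone discs, 1.84-fold higher. puc and Mmp1, which JNK signalling induces, differed by -0.03 (adjusted p = 0.88) and 0.02 and did not pass the test. The cell death genes hid and rpr differed by -0.08 and -0.58 and did not pass either. The initiator caspase Dronc fell by 0.87 on the log2 scale, with levels of 8.60, 8.88 and 8.84 in nub-MiT discs against 9.40, 9.703 and 9.82 in driver-alone discs. The 6 falls of this list numbered 3, 2, 1, 4 and 3 without nub-MiT disc 1, 2 or 3 or driver-alone disc 1 or 3, and 0 in the 12-array fit.

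More genes of the ecdysone response fell than rose. Of 25 tested, 10 fell and 2 rose, with a median of -0.39, and 7 fell at least 2-fold. Between 8 and 11 fell without any 1 array, and 5 in the 12-array fit. Eip78C, a nuclear receptor induced by the hormone, read 2.49, 5.05 and 4.01 in nub-MiT discs and 6.87, 8.15 and 8.72 in driver-alone discs, at least 15.1-fold lower (adjusted p = 0.00985). Hr4, another nuclear receptor of the cascade, read 3.50, 5.47 and 5.24 in nub-MiT discs and 7.05, 7.99 and 8.41 in driver-alone discs, 8.46-fold lower. Array 1 was the lowest of its group in both genes and in both groups.

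Blimp-1, a repressor that times the prepupal response and that entered the test only through the driver-alone discs, was at 2.93, 3.11 and 3.16 in nub-MiT discs and at 4.57, 4.97 and 5.54 in driver-alone discs, at least 2.03-fold lower. ImpE1, ImpE2 and ImpE3, which ecdysone induces in discs before they evert, fell 2.23-fold, 2.27-fold and 3.13-fold. The opposite direction was taken by ftz-f1, a nuclear receptor that appears once the hormone pulse has passed. It read 6.86, 7.30 and 7.44 in nub-MiT discs and 4.69, 4.58 and 4.48 in driver-alone discs, 6.13-fold higher (adjusted p = 0.000237). The list's other rise was that of Ldh, which is also in the glycolysis list and is given with the metabolic genes. The receptor genes EcR and usp differed by 0.24 and -0.02, and the early genes br and Eip74EF by -0.39 and -0.11, and none of the 4 passed the test. Hr3 differed by -2.24 (adjusted p = 0.103), with overlapping groups.

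Of 9 tested genes of ecdysone synthesis and turnover, 2 fell and 0 rose in limma (1 was higher at an unadjusted p under 0.05; 0 rose in the 12-array fit and 1 without nub-MiT disc 1). shd, which makes the active hormone in peripheral tissues, read 4.25, 3.41 and 4.95 in nub-MiT discs and 6.38, 6.80 and 6.05 in driver-alone discs, 4.60-fold lower. spok, an enzyme of the prothoracic gland, read 4.07, 5.55 and 2.68 in nub-MiT discs and 9.25, 6.98 and 8.70 in driver-alone discs, 18.5-fold lower (adjusted p = 0.0142). Markers of the ring gland, the organ that makes ecdysone, were also read, and 7 of 12 lay under a level of 4 on all arrays, among them dib and nvd. The summed linear level of the list was 767.7 to 783 in nub-MiT discs and 899.1 to 1452 in driver-alone discs. This list includes spok, its 1 called fall, so the sum is not a reading apart from spok. No sum was made without spok. The part of ring gland tissue in the spok value was not tested.

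Of 7 tested juvenile hormone genes, 3 rose (1 in the 12-array fit) and 0 fell (0 lower at an unadjusted p under 0.05 in limma and 0 in the 12-array fit). JhI-26, induced by juvenile hormone and tested only through the nub-MiT discs, was at least 1.79-fold higher, and the epoxide hydrolase genes Jheh1 and Jheh2, whose products break the hormone down, rose by 0.79 and 0.49 on the log2 scale. Kr-h1, the main response gene of the hormone, differed by 0.08 and did not pass.

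Pigment and cuticle tanning genes had the most negative median of the non-marker lists, -0.96, with 7 of 19 tested members lower and 3 higher; ple entered the test only through the driver-alone discs and Hn only through the nub-MiT discs. ple, the tyrosine hydroxylase that starts dopamine synthesis, read 3.56, 3.47 and 3.41 in nub-MiT discs and 4.81, 5.64 and 5.91 in driver-alone discs, at least 2.73-fold lower. Ddc, which makes dopamine from dopa, read 11.26, 11.23 and 11.46 in nub-MiT discs and 12.83, 13.43 and 13.43 in driver-alone discs, 3.77-fold lower (adjusted p = 0.00111). y (yellow), needed for black melanin, read 10.78, 10.63 and 10.68 in nub-MiT discs and 13.74, 13.24 and 13.88 in driver-alone discs, 7.55-fold lower. The nub-MiT values of these 3 genes lay close together and under all driver-alone values.

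Its relatives yellow-c and yellow-f fell 13.3-fold and 5.26-fold. b (black), which makes beta-alanine for tanning, read 7.89, 10.02 and 7.82 in nub-MiT discs and 10.72, 12.64 and 12.65 in driver-alone discs, a fall of 10.8-fold (adjusted p = 0.0194) that kept its call in 2 of the 6 fits without 1 array. e (ebony), the next enzyme of that branch, swung within both groups, at 2.42, 9.80 and 2.71 in nub-MiT discs and 2.90, 12.05 and 12.11 in driver-alone discs, and did not pass the test (adjusted p = 0.353). The rises were Hn, phenylalanine hydroxylase (at least 3.19-fold), yellow-e2 (1.83-fold) and yellow-d2 (1.79-fold). Without nub-MiT disc 2, driver-alone disc 1 or driver-alone disc 3, 1 of these 3 rises was called.

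**Figure D2:**
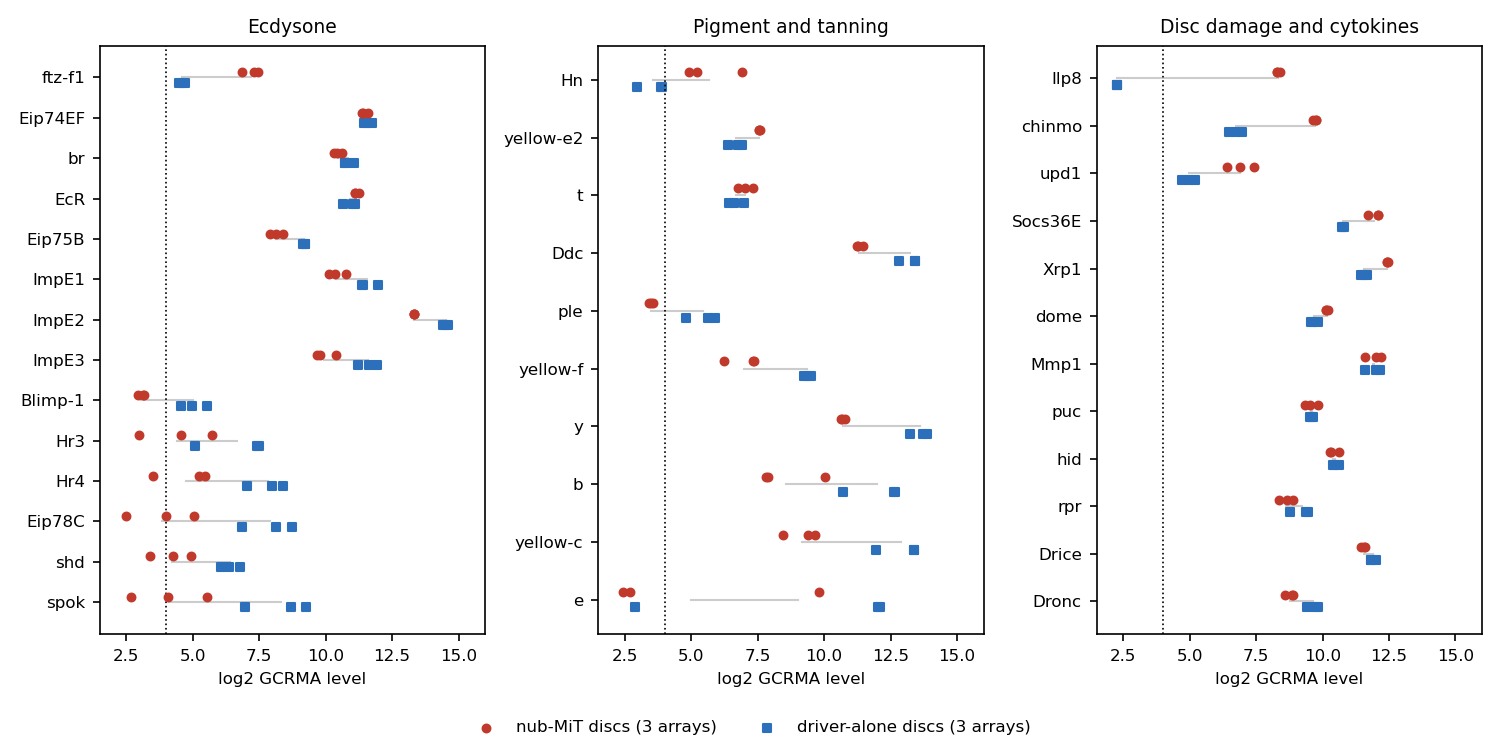
Log2 GCRMA level on each array for genes of ecdysone signalling (left), pigment and tanning (middle) and disc damage and cytokines (right), with nub-MiT discs as red circles above the blue squares of driver-alone discs and the limit of detection dotted at 4. Ilp8 stands at 8.28 to 8.39 in nub-MiT discs against 2.26 in driver-alone discs, ftz-f1 is higher while Eip78C and Hr4 are lower, and e ranges from 2.42 to 9.80 in nub-MiT discs and from 2.90 to 12.11 in driver-alone discs.

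More cuticle protein genes rose than fell. Of 125 on the array 44 were tested, 23 rose and 7 fell, with a median of 0.66, and 16 rose and 4 fell at least 2-fold. Of the rises, Cpr65Au and Cpr100A were of genes tested only through the nub-MiT discs. Without nub-MiT disc 2 the rises numbered 15, and in the 12-array fit 13. TwdlE, of the Tweedle family, read 11.51, 11.51 and 11.61 in nub-MiT discs and 7.45, 7.33 and 7.98 in driver-alone discs, 15.5-fold higher (adjusted p = 7.99e-05). Cpr65Av, with a chitin-binding domain of the Rebers and Riddiford type, read 9.76, 9.24 and 7.21 in nub-MiT discs and 4.51, 4.45 and 4.54 in driver-alone discs, 18.8-fold higher. Cpr65Au, Cpr65Av and Cpr65Aw, adjacent among tested genes on chromosome arm 3L, were at least 4.32-fold, 18.8-fold and 11.1-fold higher.

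Cpr49Af was 11.8-fold higher while its namesake Cpr49Ag was 3.32-fold lower, at 10.01, 9.99 and 10.01 in nub-MiT discs and 11.62, 11.73 and 11.86 in driver-alone discs (adjusted p = 0.000104). Lcp3, a larval cuticle protein, read 13.40, 12.44 and 10.86 in nub-MiT discs and 15.13, 15.08 and 14.77 in driver-alone discs, 6.75-fold lower, and Pcp, the pupal cuticle protein, was 3.09-fold lower. Directions thus differed within the family.

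Genes that make and modify chitin rose in 14 of 21 tested cases, with 1 fall (0 without nub-MiT disc 2 or 3 or driver-alone disc 1 or 3) and a median of 0.53. The 12-array fit called 3 of them higher. Cda5, a chitin deacetylase, read 7.80, 7.60 and 7.48 in nub-MiT discs and 4.83, 4.32 and 5.12 in driver-alone discs, 7.32-fold higher (adjusted p = 0.000462). Cht7, a chitinase, rose 2.69-fold, and reb, which helps to lay down chitin, 1.96-fold. Gasp, a chitin-binding protein of the trachea and other cuticles, rose 2.12-fold. Idgf1, an imaginal disc growth factor related to chitinases, fell by 0.81 on the log2 scale, whereas its relative Idgf6 rose by 1.31.

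Odorant-binding proteins, small secreted carriers named for their role in smell and found in other tissues as well, rose in 11 of 16 tested cases (52 are on the array), with 0 falls and a median of 1.12 (0 lower at an unadjusted p under 0.05 in limma, 0 in the 12-array fit and up to 2 without 1 array). Of the 11, Obp50d and Obp50e entered the test only through the nub-MiT discs. Obp50e read 8.47, 8.87 and 8.90 in nub-MiT discs and 2.37, 2.37 and 2.40 in driver-alone discs, at least 26.9-fold higher (adjusted p = 8.32e-06). Its driver-alone values lay close together under the limit of detection, so its p has the same limit as that of Ilp8. Obp56a read 12.88, 12.52 and 12.37 in nub-MiT discs and 9.17, 10.03 and 9.54 in driver-alone discs, 8.05-fold higher. Obp99b, by contrast, read 13.05, 9.22 and 5.51 in nub-MiT discs and 12.57, 11.56 and 13.26 in driver-alone discs and did not pass the test. It ran in the same order over the nub-MiT arrays as the fat body gene Lsp2.

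Cytochrome P450 enzymes, which oxidise hormones and foreign compounds, rose in 14 of 26 tested cases with 1 fall and a median of 0.65, and 6 rose at least 2-fold. Their 14 rises stayed between 13 and 16 without any 1 array and at 14 in the 12-array fit, and the 1 fall numbered 2 without driver-alone disc 1 and 0 without nub-MiT disc 1 or 2 or driver-alone disc 2 or 3. Of the 14, 5 were of genes that reached the limit of detection on all nub-MiT arrays and no driver-alone array. Cyp6a23 read 6.05, 5.81 and 5.62 in nub-MiT discs and 2.88, 2.75 and 3.12 in driver-alone discs, at least 3.54-fold higher, and its neighbour Cyp6a17 was 4.67-fold higher (adjusted p = 0.00156). Cyp4g1, which makes cuticular hydrocarbons, fell by 0.74 on the log2 scale. Of 30 tested glutathione and UDP-glycosyl transferases, which conjugate such compounds, 8 rose and 4 fell (5 and 1 in the 12-array fit, and 2 fell without nub-MiT disc 2 or driver-alone disc 2). Among all tested genes 14.7% rose and 17.4% fell. Ugt35A1, which entered the test only through the nub-MiT discs as did Ugt37D1, was at least 4.50-fold and GstE6 at least 4.54-fold higher, and Ugt301D1 was 11.8-fold lower (adjusted p = 0.016).

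**Figure D3:**
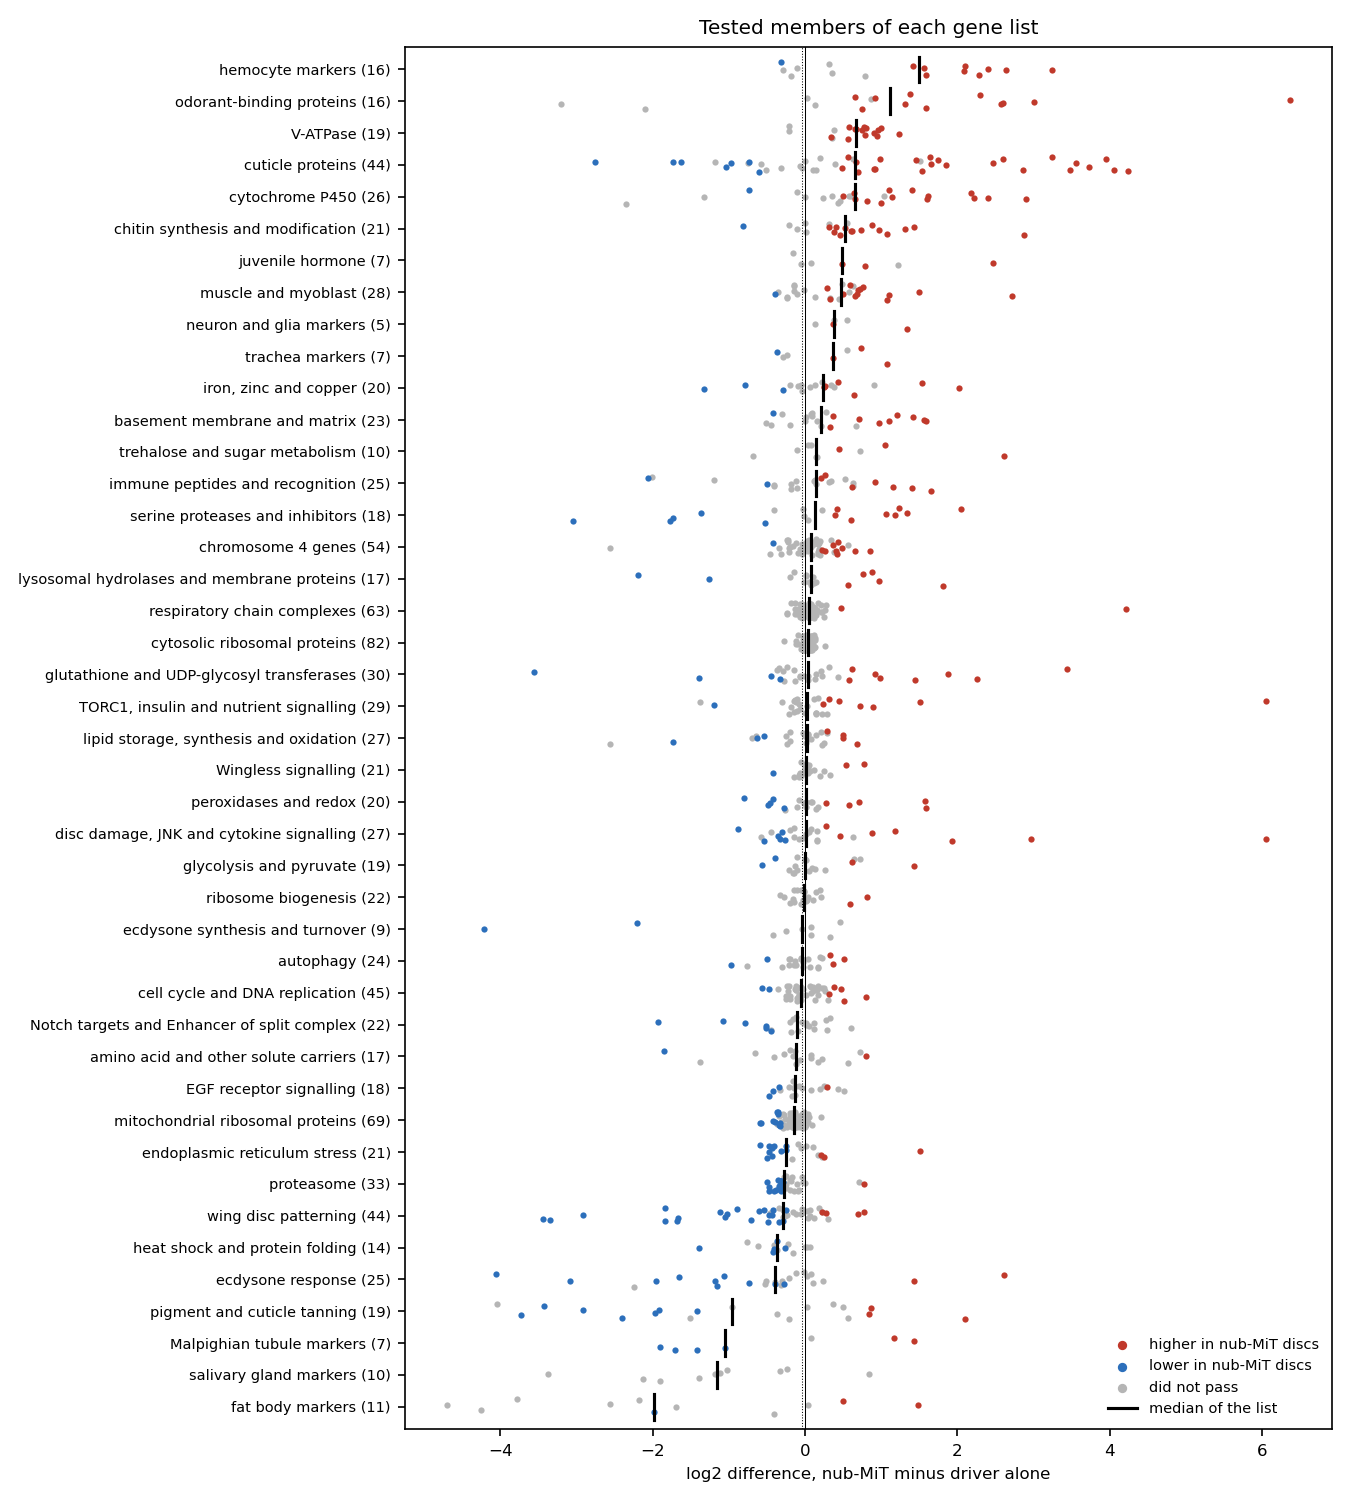
Differences of the tested members of each gene list with at least 5 tested members (log2, nub-MiT minus driver alone), 1 point per gene, with the number tested in brackets, the list's median as a black bar and lists ordered by median. Red points rose, blue points fell and grey points did not pass the test; medians run from 1.49 for hemocyte markers to -1.98 for fat body markers, and the dotted line marks the median of all tested genes at -0.04.

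Subunits of the V-ATPase, the pump that acidifies lysosomes, rose by moderate amounts: 15 of 19 tested were higher and 0 lower, with a median of 0.67, and 1 of them at least 2-fold (0 were lower at an unadjusted p under 0.05 in limma, and 0 in the 12-array fit). Vha100-2, a form of the large membrane subunit, read 11.18, 11.21 and 11.13 in nub-MiT discs and 10.10, 9.75 and 9.97 in driver-alone discs, 2.35-fold higher (adjusted p = 0.000745). Of the other 14 subunits on the array, none passed the filter on dim probe sets. Vha68-1, Vha100-1, Vha36-3 and VhaM9.7-c were tested and did not pass, with differences of 0.38, 0.35, -0.21 and -0.21.

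Other lysosomal genes gave calls in both directions. Of 17 tested hydrolases and membrane proteins, 5 rose and 2 fell, with a median of 0.08. Npc2b, of the family that carries cholesterol out of lysosomes, read 11.64, 11.61 and 11.29 in nub-MiT discs and 9.28, 10.43 and 9.37 in driver-alone discs, 3.52-fold higher (adjusted p = 0.00835). CtsL1, the protease cathepsin L, rose 1.95-fold. Cln3, a lysosomal membrane protein, read 6.52, 5.70 and 7.22 in nub-MiT discs and 8.33, 8.86 and 8.84 in driver-alone discs, 4.58-fold lower, and Cln7 was 2.39-fold lower. Of 24 autophagy genes 3 rose (1 without nub-MiT disc 1, nub-MiT disc 2 or driver-alone disc 1, and 1 in the 12-array fit) and 2 fell, the largest difference being that of Atg18b at -0.97. The autophagy shares were under those of all tested genes, 14.7% higher and 17.4% lower.

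In TORC1 and insulin signalling 7 of 29 rose, Ilp8 among them, and 1 fell, with a median of 0.03 (4 rose without nub-MiT disc 2 or driver-alone disc 3, and 4 in the 12-array fit; 2 fell without driver-alone disc 1 or 3). The shares of all tested genes were 14.7% higher and 17.4% lower. Thor, the translational repressor 4E-BP, read 12.99, 12.86 and 12.47 in nub-MiT discs and 11.65, 10.62 and 11.50 in driver-alone discs, 2.85-fold higher (adjusted p = 0.0117). REPTOR, a factor that TORC1 holds in the cytoplasm, rose 1.87-fold, and foxo, which insulin signalling restrains, 1.65-fold. S6k, a kinase that TORC1 activates, rose 1.24-fold. Sesn, an inhibitor of TORC1, fell 2.28-fold, with levels of 6.87, 7.06 and 6.93 in nub-MiT discs and 7.81, 8.14 and 8.48 in driver-alone discs.

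Few cell cycle genes passed the test, and those that did differed less than 2-fold. stg, the Cdc25 phosphatase that starts mitosis, was 1.75-fold higher (adjusted p = 0.00183), at 11.95, 11.82 and 11.95 in nub-MiT discs and 11.19, 11.14 and 10.96 in driver-alone discs. The mitotic kinase Cdk1 and the repressor E2f2 fell by 0.48 and 0.57 on the log2 scale. In all, 5 of 45 cell cycle genes rose and 2 fell, and 38 did not pass. Both shares lay under those of all tested genes, 14.7% higher and 17.4% lower. Rises numbered 2 without nub-MiT disc 2 or driver-alone disc 2, 3 without nub-MiT disc 1, nub-MiT disc 3 or driver-alone disc 3, and 1 in the 12-array fit, and falls numbered 5 without driver-alone disc 3.

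Of 82 tested cytosolic ribosomal proteins, 0 rose and 0 fell in limma, with a median of 0.04 (1 was higher and 1 lower at an unadjusted p under 0.05, and 0 passed in the 12-array fit; 1 fell without driver-alone disc 3). Of 22 ribosome biogenesis genes 2 rose, Myc and Non1, and 0 fell in limma (2 lower at an unadjusted p under 0.05; 1 rose and 0 fell in the 12-array fit, and 3 fell without driver-alone disc 3). Myc, a transcription factor that promotes growth, read 10.84, 10.72 and 10.81 in nub-MiT discs and 10.23, 9.68 and 10.03 in driver-alone discs, 1.75-fold higher (adjusted p = 0.00942). Among 69 tested mitochondrial ribosomal proteins 10 fell and 0 rose, and the median was -0.15 (1 higher at an unadjusted p under 0.05). As a share, these 10 falls lay under the 17.4% of all tested genes that fell. The 10 falls numbered 4, 4, 5, 6 and 6 without nub-MiT disc 1, 2 or 3 or driver-alone disc 1 or 2. They numbered 17 without driver-alone disc 3 and 0 in the 12-array fit. mRpL20 and mRpL18 fell most, by 0.58 and 0.59 on the log2 scale. Of 63 respiratory chain genes 2 rose, ATPsynepsilonL and Cyt-c-p, and 0 fell (1 lower at an unadjusted p under 0.05; 0 in the 12-array fit and 1 without driver-alone disc 3). Their rises numbered 1 without nub-MiT disc 2 or 3 or driver-alone disc 1 or 3.

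Among proteasome, heat shock and endoplasmic reticulum genes, more fell than rose. Of 33 tested proteasome genes 14 fell and 1 rose, with a median of -0.27, and all 14 falls were under 2-fold. The count depended on the arrays used: 2 fell without nub-MiT disc 1, 2 or 3, 6 without driver-alone disc 2, 8 without driver-alone disc 3 and 0 in the 12-array fit, and 0 rose without nub-MiT disc 2 or 3 or driver-alone disc 3 and 2 without driver-alone disc 1 or 2. Rpt2, an ATPase of the regulatory particle, read 11.68, 11.65 and 11.58 in nub-MiT discs and 12.03, 12.31 and 12.05 in driver-alone discs, 1.41-fold lower.

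In the endoplasmic reticulum list 11 of 21 fell and 3 rose, with a median of -0.25 (6 fell without nub-MiT disc 1, 2 or 3, 7 without driver-alone disc 3, and 3 in the 12-array fit; 1 or 2 rose without any 1 array). Sec61gamma, of the channel through which proteins enter the reticulum, read 12.12, 12.20 and 12.16 in nub-MiT discs and 12.72, 12.75 and 12.79 in driver-alone discs, 1.51-fold lower (adjusted p = 0.00168). Manf, a secreted stress factor, fell 1.38-fold. Of 14 heat shock genes 5 fell and 0 rose (0 higher at an unadjusted p under 0.05; 3 fell without nub-MiT disc 1, nub-MiT disc 3, driver-alone disc 1 or driver-alone disc 3, and 0 in the 12-array fit). Hsp67Ba fell most, 2.62-fold, with levels of 9.28, 9.93 and 9.52 in nub-MiT discs and 11.01, 10.80 and 11.09 in driver-alone discs.

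Metabolic genes gave scattered calls. Ldh, lactate dehydrogenase, read 10.78, 10.96 and 11.06 in nub-MiT discs and 9.02, 9.82 and 9.66 in driver-alone discs, 2.70-fold higher (adjusted p = 0.0053), while Hex-A, hexokinase, and fbp fell by 0.56 and 0.39 on the log2 scale. Of 10 tested genes of trehalose and sugar metabolism 3 rose: Sodh2, a sorbitol dehydrogenase, 6.12-fold, Glyp, which breaks down glycogen, 2.08-fold and Gfat1, which makes the precursor of chitin, 1.36-fold. Among lipid genes 4 of 27 rose and 3 fell, with FASN1, the fatty acid synthase, 1.60-fold higher and bgm, an acyl-CoA synthetase, at least 3.26-fold lower. The lipid shares lay near or under those of all tested genes, 14.7% higher and 17.4% lower.

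Of the transferrins, which carry iron, Tsf1 and Tsf3 rose and Tsf2 differed by -0.06 and did not pass. Tsf3 read 6.15, 6.18 and 6.26 in nub-MiT discs and 4.20, 4.22 and 4.11 in driver-alone discs, 4.05-fold higher (adjusted p = 3.81e-05), and Tsf1, the main transferrin of the blood, was 2.90-fold higher. The zinc transporters ZnT77C and ZnT41F were 2.50-fold and 1.72-fold lower. In all 6 of 20 rose and 3 fell, and 3 rose without nub-MiT disc 1, 2 or 3; of the 6, ATP7 entered the test only through the nub-MiT discs. Among immune genes 7 of 25 rose and 2 fell (4 rose without nub-MiT disc 2 or 3). PGRP-SA, a sensor of bacterial cell walls, was 3.16-fold higher and the thioester protein Tep2 2.66-fold higher, and SPE, the protease that activates the Toll ligand, tested only through the driver-alone discs, was at least 1.48-fold lower.

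Markers of cells other than the disc epithelium moved with the groups in some lists. Hemocytes, the blood cells that attach to discs, gave 9 of 16 tested markers higher and 1 lower (0 lower without nub-MiT disc 2 or 3 or driver-alone disc 1 or 3), with a median of 1.49. Hml (hemolectin) read 8.42, 8.75 and 9.01 in nub-MiT discs and 6.08, 6.62 and 5.54 in driver-alone discs, 6.24-fold higher (adjusted p = 0.00192). Sr-CI, a scavenger receptor of phagocytes, read 7.47, 8.001 and 7.85 in nub-MiT discs and 4.81, 4.72 and 4.06 in driver-alone discs, 9.50-fold higher. The phagocytic receptors NimC1 and eater were 4.27-fold and 4.29-fold higher.

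The blood cell factor srp read 7.86, 8.31 and 8.64 in nub-MiT discs and 7.13, 7.90 and 7.42 in driver-alone discs, which overlapped, and did not pass. PPO1, of crystal cells, read 3.68, 4.40 and 5.005 in nub-MiT discs and 3.88, 5.85 and 3.68 in driver-alone discs. NimC4, NimB5, gcm and lz lay under a level of 4 on all 6 arrays. Averaged over the tested markers, nub-MiT discs 1, 2 and 3 stood at 1.00, 1.25 and 1.48 against -0.04, 0.38 and -0.34 for the driver-alone discs, as log2 differences from the driver-alone mean, and the groups did not overlap. The summed linear level of the list was 13990 to 15360 in nub-MiT discs and 12800 to 13470 in driver-alone discs. A large part of this sum came from Ance, the 1 marker that was lower. Ance read 13.02, 12.79 and 12.90 in nub-MiT discs and 13.28, 13.10 and 13.26 in driver-alone discs. The sum therefore says little about the other markers, and it was not made without Ance.

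Basement membrane genes share Col4a1, vkg and Pxn with the hemocyte list, and 9 of 23 tested rose and 1 fell, with a median of 0.21 (7 to 9 rose without any 1 array, and 5 in the 12-array fit; 0 fell without nub-MiT disc 1, 2 or 3 and 2 without driver-alone disc 1). Col4a1, a chain of collagen IV, read 9.45, 9.33 and 9.44 in nub-MiT discs and 8.005, 7.99 and 7.54 in driver-alone discs, 2.96-fold higher (adjusted p = 0.000962). vkg, the other chain, was 2.69-fold higher, and SPARC, which binds collagen IV, 2.32-fold higher. PH4alphaEFB, which hydroxylates collagen, fell by 0.42 on the log2 scale. The part of hemocytes in the basement membrane, immune and transferrin values was not tested.

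Muscle and myoblast genes rose in 13 of 28 tested cases with 1 fall, and the median was 0.47. The rises numbered 5, 4 and 7 without nub-MiT disc 1, 2 or 3, 6 and 7 without driver-alone disc 1 or 3 and 6 in the 12-array fit, and the 1 fall numbered 2 without driver-alone disc 2. Apart from mspo and htl, these 13 were genes of the contractile apparatus. Mlc2, a myosin light chain, read 8.99, 9.47 and 8.95 in nub-MiT discs and 7.63, 7.81 and 7.48 in driver-alone discs, 2.82-fold higher (adjusted p = 0.00187), and Obsc, a giant sarcomere protein, was at least 4.60-fold higher. The myoblast factors twi, zfh1, Mef2 and Him differed by -0.23, -0.14, -0.24 and -0.36, and none of the 4 passed. The summed linear level of the list was 169600 to 204400 in nub-MiT discs and 129300 to 171900 in driver-alone discs, which overlapped, and Act88F, Act79B, sns, TpnC4 and Msp300 lay under 4 on all arrays.

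Fat body and salivary gland markers, of tissues outside the disc, varied strongly between arrays of the same group. Lsp2, a storage protein of the fat body, read 12.04, 8.14 and 5.22 in nub-MiT discs and 12.27, 11.30 and 13.18 in driver-alone discs. The mean of the 11 tested fat body markers stood at 0.49, -1.92 and -3.89 in nub-MiT discs 1, 2 and 3 and at 0.23, -0.71 and 0.49 in driver-alone discs, and 2 of 11 rose and 1 fell. Without nub-MiT disc 1 the falls numbered 5, and the rises numbered 1 without nub-MiT disc 1 or 2 or driver-alone disc 1 or 3. Sgs3, a glue protein of the salivary gland, read 2.22, 12.42 and 6.48 in nub-MiT discs and 7.88, 2.32 and 14.46 in driver-alone discs. Of 10 tested salivary gland markers 0 passed in limma in either direction (0 at an unadjusted p under 0.05, and 0 in the 12-array fit; 2 fell without driver-alone disc 2), and the list's median of -1.15 rested on values that overlapped between groups.

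Tracheal markers gave 3 rises and 1 fall of 7, neuron and glia markers 2 rises of 5, and Malpighian tubule markers 2 rises and 4 falls of 7, with the tubule-defining genes Uro, Irk2 and salt under 4 on all arrays. The 1 tracheal fall numbered 0 without nub-MiT disc 1, 2 or 3 or driver-alone disc 1, and the 2 neuron and glia rises numbered 1 without nub-MiT disc 2 or 3 or driver-alone disc 1 or 2. The 4 tubule falls numbered 2 without nub-MiT disc 1, nub-MiT disc 3 or driver-alone disc 3. All 14 midgut markers lay under 4 on all 6 arrays.

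**Figure D4:**
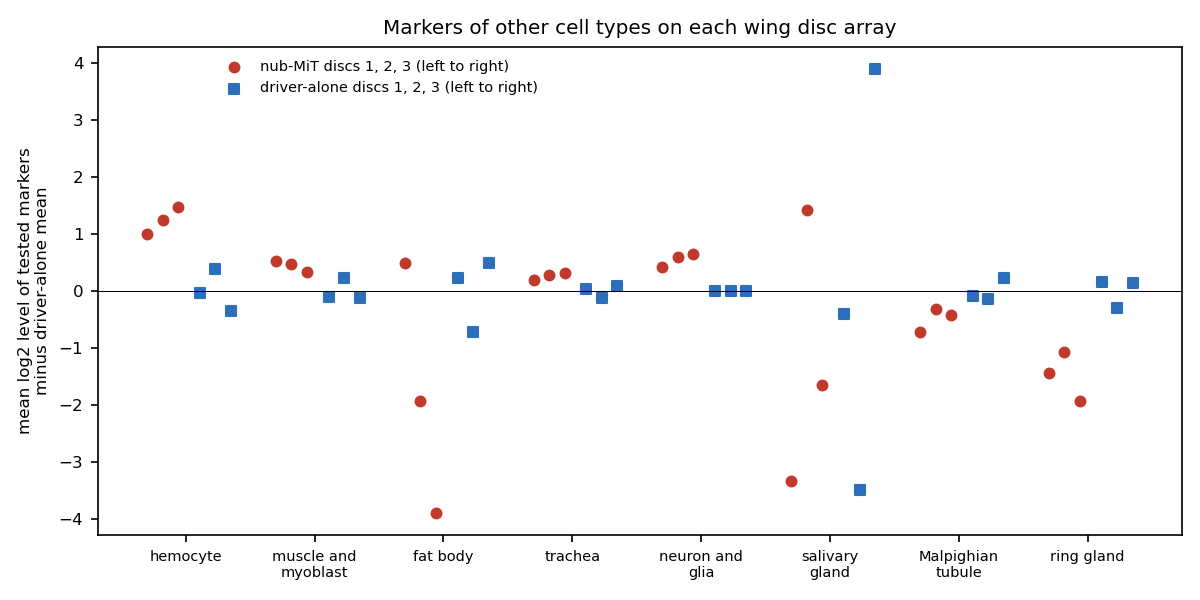
Mean log2 level of the tested markers of each other cell type on each array, as the difference from the mean of the driver-alone discs (vertical axis), with nub-MiT discs 1 to 3 as red circles left of driver-alone discs 1 to 3 as blue squares. Hemocyte markers stand at 1.00 to 1.48 in nub-MiT discs and -0.34 to 0.38 in driver-alone discs, while fat body and salivary gland markers span several log2 units within a group.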

How the data were processed

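The authors deposited log2 expression values, for which the submitters' processing notes name GCRMA (version and genome build not given in the sources used here). A deposited table of an analysis of variance holds step-up adjusted p-values, per the file headers, and entered 1 alternative only. The 183 controls among 18952 probe sets were dropped. Names came from accessions (13957) or symbols (367) matched to a RefSeq gene table of assembly Release 6, or by the file's name alone (197); 263 with several genes and 3985 with none were not named.

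A probe set was tested where 3 or more of the 6 wing disc arrays reached log2 4. The test was limma's (version 3.58.1, R 4.3.3; lmFit, then eBayes with trend and robust options off, no block), with Benjamini-Hochberg adjustment over all 7888. Every adjusted p is limma's. A gene was read by its probe set with the highest mean; 357 genes had several tested probe sets, and 2 of them had calls in opposite directions. Where a group mean lay under 4, a fold is given as at least N-fold against that level. On simulated data of 7888 probe sets with 1500 changed, 69.5% of log2 changes of 0.5, 91.8% of 1 and 97.8% of 2 were recovered and 3.64% of calls were false. With 200 changed, 45.4%, 80.6% and 95.5% were recovered and 4.98% were false. The simulated noise was normal and independent between probe sets. Variation that many genes of an array share is therefore not covered by these rates.

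The members and the 45 gene lists were chosen with earlier results of these data known. Genes named were Mitf, the 25 largest rises and falls among called genes whose groups did not overlap, the 10 smallest p of those, the wing disc markers, up to 6 called members of a list in each direction and up to 4 members that did not pass. Of the 25 rises, 1 gene is not reported here. Others (the 10 genes under 4 in all driver-alone discs, neighbouring genes, Eip75B, Hr3, Mmp1, hid, rpr, dpp, Obp99b, Lsp2, Sgs3 and further members of a list given with their value) were chosen after their values were seen. Lists are described by counts and medians, without a set test. Each list's counts are to be read against the 14.7% higher and 17.4% lower of all tested genes. No sequence was searched or printed, since no promoter or protein table was used here.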

Additional observations from a re-analysis of the deposited data

How the results depend on the processing

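Fitting all 12 arrays together called 628 probe sets higher and 483 lower, and the adjusted p of the authors' deposited analysis of variance called 409 higher and 284 lower, with 255 and 105 at least 2-fold higher and lower. Leaving out each array in turn gave 791 to 1055 probe sets higher and 719 to 1180 lower. With a replicate block, 920 were higher and 930 lower. Same-numbered arrays deviated from their group means with correlations of 0.36, -0.07 and -0.18. Arrays numbered 1 correlated best with their own number, and those numbered 2 and 3 did not. So few arrays cannot show whether the numbers pair the samples. Proteasome falls numbered 4 with the block. Trend and robust options, median centring, quantile normalization and 3 other filters on dim probe sets kept all 4 counts within 1.5 times. No setting moved the median difference by more than 0.022 on the log2 scale. Of the 287 genes that the naming rule gave and that passed, 121 lost the call in the 12-array fit, 169 with the authors' adjusted p, 68 without a filter, 47 with the block and 40 to 66 without 1 array, and 0 reversed. Mitf did not pass under any setting (differences of 0.07 to 0.19). A change of 1 log2 unit was recovered in 91.8% of simulated cases with 1500 changed probe sets and independent noise. Small changes are the least secure. Genes under a log2 level of 4 give bounds only.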

Other observations

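Genes called at least 2-fold higher were set against the next tested genes on the chromosome. Of 317 such genes, 91 (28.7%) had a next tested gene, on either side, that was also called at least 2-fold higher in nub-MiT discs, as had 8.42% of all 7165 tested genes with a position. For the 208 genes called at least 2-fold lower the share was 13.9% (29 genes), and 5.67% of all tested genes lay next to one. No test of this difference was made. The longest run held 6 genes on chromosome arm 2L, CG17105, CG17107, CG7296, CG7294, CG17108 and CG7300. CG17105 read 14.27, 14.22 and 13.64 in nub-MiT discs and 10.13, 11.96 and 9.93 in driver-alone discs, 10.3-fold higher, and CG7296 was 49.9-fold higher. A run of 4 on the same arm held the hemocyte genes NimB2, NimB4, He and NimC1. These runs were chosen after their values were seen.

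By chromosome arm, 12.7% (3L) to 16.6% (2R) of tested genes on the large arms were higher and 14.3% (X) to 20% (2L) were lower. On the small chromosome 4, where Mitf lies, 9 of 54 tested genes were higher (16.7%) and 1 was lower (1.85%), with a median difference of 0.08. The 9 rises numbered 4, 1, 2 and 4 without nub-MiT disc 1, 2 or 3 or driver-alone disc 1, and 2 in the fit to 12 arrays. The largest was that of unc-13 at 0.85 on the log2 scale, and the 1 fall was that of Arf4 at -0.42 (2 fell without nub-MiT disc 1 or 3 and 3 without driver-alone disc 3).

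Serine proteases and their inhibitors, the serpins, gave 8 rises and 5 falls among 18 tested genes (4 and 3 in the 12-array fit; the rises of Spn42Dc and Spn43Ab are of genes tested only through the nub-MiT discs), with changes in both directions within the serpin family. Spn47C read 9.10, 9.27 and 9.12 in nub-MiT discs and 7.89, 8.15 and 7.72 in driver-alone discs, 2.36-fold higher (limma adjusted p = 0.00138). Spn43Aa read 11.09, 10.79 and 10.90 in nub-MiT discs and 12.66, 12.59 and 12.84 in driver-alone discs, 3.41-fold lower. Among peroxidases and redox genes 5 of 20 rose and 5 fell (3 rose without nub-MiT disc 1 or 2 or driver-alone disc 1 or 2; 3 fell without nub-MiT disc 1 or 3). For all tested genes the shares were 14.7% and 17.4%. Pxd, a peroxidase, was 2.99-fold higher, and Gclc, which starts glutathione synthesis, was 1.75-fold lower. Of 17 tested solute carriers 1 rose, MFS3, and 1 fell, Picot. The fall numbered 4 without driver-alone disc 1 and 2 without driver-alone disc 2.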
